A study of Gallus gallus with 19 samples.

Results

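FOXM1, BUB1, DLGAP5, ECT2, INCENP, NCAPH, PRC1, RACGAP1 and MKI67 are 9 genes of cell division, out of 24356 genes counted in these chick embryos. They were chosen by the study's own expression values: each was drawn or listed there as lower after knockdown of Nanog, of PouV and of Klf4. They were thus selected largely on the same samples that are described here, so the knockdown values are given as a description, without a test, and are not evidence for their direction. By gene name, 8 of the 9 were found in the authors' table and MKI67 was found through its NCBI gene ID. For PRC1 the study's list gives another gene ID than the authors' table. The values called PRC1 below are those of the table's ID, and the listed ID is described beside it.

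When a cell enters mitosis, its chromosomes condense, the spindle captures them at their kinetochores, a checkpoint delays anaphase until every chromosome is attached, and a central spindle then directs the furrow that divides the cell. FOXM1 is the forkhead transcription factor that switches on many of the genes for these steps late in the cell cycle, and the other 8 genes each act in one of the steps. The roles given below are known mainly from human and mouse cells. In the chick ectoderm at these stages the cells of the neural folds divide while the neural plate border (NPB) is patterned, and the neural crest arises from this border.

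The experiment asked what the pluripotency factors Nanog, PouV and Klf4 do in the NPB. A translation blocking morpholino (MO), an antisense oligomer that keeps the mRNA of its target from being translated, was electroporated into one side of the embryo and a control MO into the other. Each bulk RNA sequencing sample was a pool of NPB regions from several embryos, and the sources used here differ on how many. All groups were wild type chicken embryos that were electroporated at the gastrula stage HH4 and collected at HH7/HH8-, and the labels give midbrain as tissue and neural crest as cell type. The 19 samples comprised 4 Nanog MO samples with 4 control MO samples, 3 PouV MO samples with 2 controls (replicates 1 and 3) and 4 Klf4 MO samples with 2 controls (replicates 1 and 3). Both sides of a knockdown embryo carried an MO, and no untreated embryos were analysed here. Same-numbered MO and control samples were taken as opposite sides of the same embryos, as the bilateral design implies. This gave 8 pairs, and 3 MO samples (PouV replicate 4, Klf4 replicates 2 and 4) had no same-numbered control. Across genes, the deviations of both sides from their group means had r of 0.522 to 0.677 in 7 of the pairs and of -0.001 in the Nanog replicate 4 pair, so the pair counts are also given without it.

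Total counts per sample ran from 31215191 to 44726348. The 9 genes were counted with 1572 to 17520 reads in a sample, so that counting error alone was at most 2.52% of a value. Values below are CPM, counts divided by the TMM-scaled library size and set to a common total. The paper reports an apparent batch effect in its counts, which it removed with a factor analysis on the control samples. CPM values are not corrected for it, so levels compared between experiments can carry it. The mRNAs of the targeted genes overlapped between MO and control samples, at 4.60 to 7.36 against 3.59 to 12.5 CPM for NANOG, at 1039 to 1526 against 720.5 to 1155 for Pou5f3 (PouV) and at 3.94 to 14.0 against 4.75 to 8.22 for KLF4. These MOs block translation, so these levels do not measure the loss of the proteins. PouV MO replicate 3 stood apart from the other samples. Its chi-square per gene against the other PouV MO samples was 187 to 203, whereas every other pair of samples within a group gave 21.4 to 77.3, and 6.46% of its counts lay on 67 genes of ribosomal proteins, against 3.17 to 4.33% in the other 18 samples. The fitted values after PouV knockdown are therefore given with and without it. The ribosomal protein genes also moved with the groups. Of the 67 genes, 63 had a negative log2 fold change after Nanog knockdown (median -0.11), 3 after Klf4 knockdown (median 0.17) and 0 after PouV knockdown (median 0.38, and 0.06 without PouV MO replicate 3), and their part in the levels below was not tested.

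Defining markers of the NPB and neural crest were present in all samples, with PAX7 at 6.66 to 42.6, FOXD3 at 8.68 to 102, SNAI2 at 25.8 to 67.3 and TFAP2A at 72.5 to 179 CPM. Markers of other cells were present as well. The summed level ran from 225 to 1138 CPM for 5 neural plate genes, 454 to 1699.8 for 6 non-neural ectoderm genes, 209 to 1065 for 8 endoderm genes, 260.4 to 537 for 9 mesoderm genes and 192 to 473 for 5 of 6 listed blood and endothelium genes. No marker was at 0 in any sample, but some came near it, with TTR at 0.03 and MSGN1 at 0.12 CPM at their lowest. A sum mostly follows its most abundant genes. These were KRT7 (217 to 1100 CPM) and KRT18 (120 to 678) for non-neural ectoderm and APOA1 (103 to 836) for endoderm. Some of these sums moved with the groups. The 10 NPB and neural crest genes summed to 385 to 421 CPM in the Nanog MO samples against 522 to 681 in their own controls. The mesoderm genes summed to 377 to 431 in the PouV MO samples against 266 to 345, and the non-neural ectoderm genes to 1315 to 1699.8 in the Klf4 MO samples against 1088 to 1225. The blood and endothelium genes summed to 261 to 356 in the Klf4 MO samples against 228 to 232. All other lists overlapped in each experiment. The part of tissue composition in the levels below was not tested. In such tissue pools, fewer dividing cells and less mRNA per dividing cell cannot be told apart.

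Gene by gene in the 8 pairs, the MO side was below the control side in 71 of 72 comparisons, and PRC1 in the Klf4 replicate 3 pair was the exception, with a log2 ratio of 0.02. For PRC1 the ID named in the authors' table is used, and the ID in the study's list was at -0.12 in that pair. The other 8 genes were lower in 8 of 8 pairs, which 2.51% of the 18996 genes tested also were. Since the choice of the genes used these samples, nothing is read from that contrast. The median log2 ratio of the 9 genes was -0.13, -0.15, -0.25 and -0.26 in the Nanog pairs of replicates 1 to 4. It was -0.14 and -0.55 in the PouV pairs of replicates 1 and 3, and -0.12 and -0.17 in the Klf4 pairs of replicates 1 and 3. The median of all genes at 1 CPM or more lay between -0.04 and 0.01 in these pairs. Without the PouV replicate 3 pair, 62 of 63 comparisons were lower, and without the Nanog replicate 4 pair 62 of 63 likewise. The latter pair held the lowest of the 8 log2 ratios of INCENP, NCAPH, PRC1 and RACGAP1. The 3 MO samples with no partner were set against the mean of the controls of their own experiment. All 9 genes were then lower in Klf4 MO replicate 2 (median log2 ratio -0.22), and 8 of 9 were lower in Klf4 MO replicate 4 (median -0.27, RACGAP1 at 0.00) and in PouV MO replicate 4 (median -0.11, MKI67 at 0.02).

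**Figure D1:**
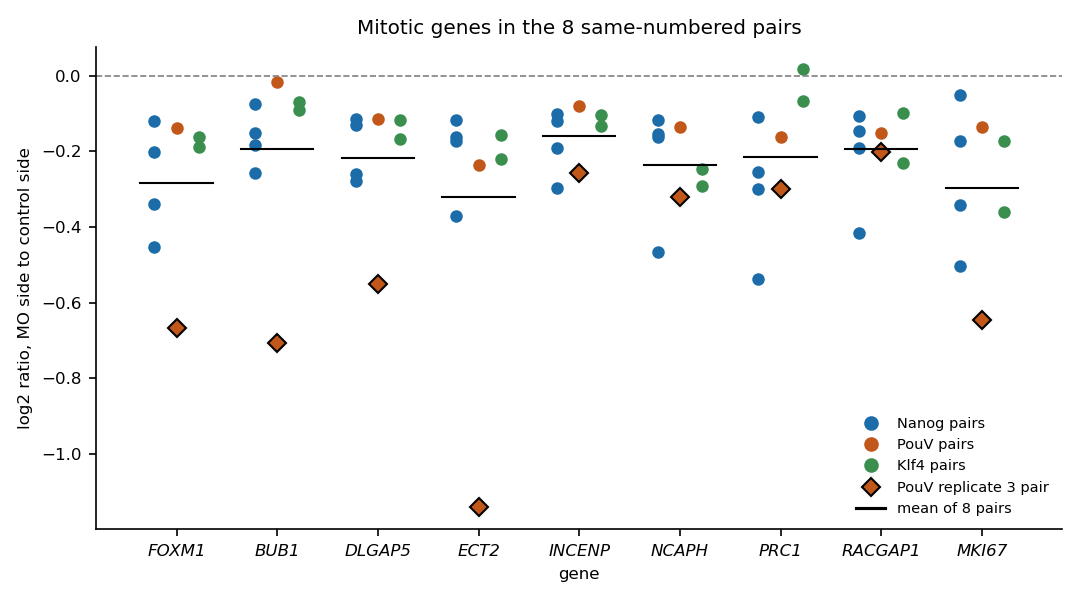
Log2 ratio of the MO side to the control side for each of the 9 mitotic genes (x axis) in the 8 same-numbered pairs, with 1 point a pair, coloured by experiment, a diamond for the PouV replicate 3 pair and a bar at the mean of the 8 pairs. All points but PRC1 in the Klf4 replicate 3 pair lie below 0, and the diamond of ECT2 is the lowest at -1.14.

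FOXM1 (ENSGALG00000013420) is the regulator of the group. In the 8 controls it ranged from 75.1 to 102 CPM with a median of 93.5. The Nanog controls of replicates 1 to 4 were at 87.7, 102, 96.9 and 97.1 CPM, and the Nanog MO sides at 80.7, 80.9, 70.7 and 84.3. All 4 Nanog MO samples thus lay below all 4 of their own controls. In the PouV experiment FOXM1 was at 75.1 and 99.5 CPM in controls 1 and 3 and at 68.2, 62.5 and 78.2 in MO samples 1, 3 and 4. The Klf4 controls 1 and 3 were at 90.1 and 82.4 CPM and Klf4 MO samples 1 to 4 at 79.0, 81.4, 73.6 and 74.2. The groups overlapped in the PouV experiment through MO replicate 4 and did not overlap in the Klf4 experiment. The Nanog pairs gave log2 ratios of -0.12, -0.34, -0.45 and -0.20, the PouV pairs -0.14 and -0.67, and the Klf4 pairs -0.19 and -0.16. In the model of each knockdown against all 8 controls, FOXM1 had log2 fold changes of -0.21 (standard error 0.0874) for Nanog, -0.39 (standard error 0.0986) for PouV and -0.22 (standard error 0.102) for Klf4 knockdown. The PouV value was -0.31 without PouV MO replicate 3.

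**Figure D2:**
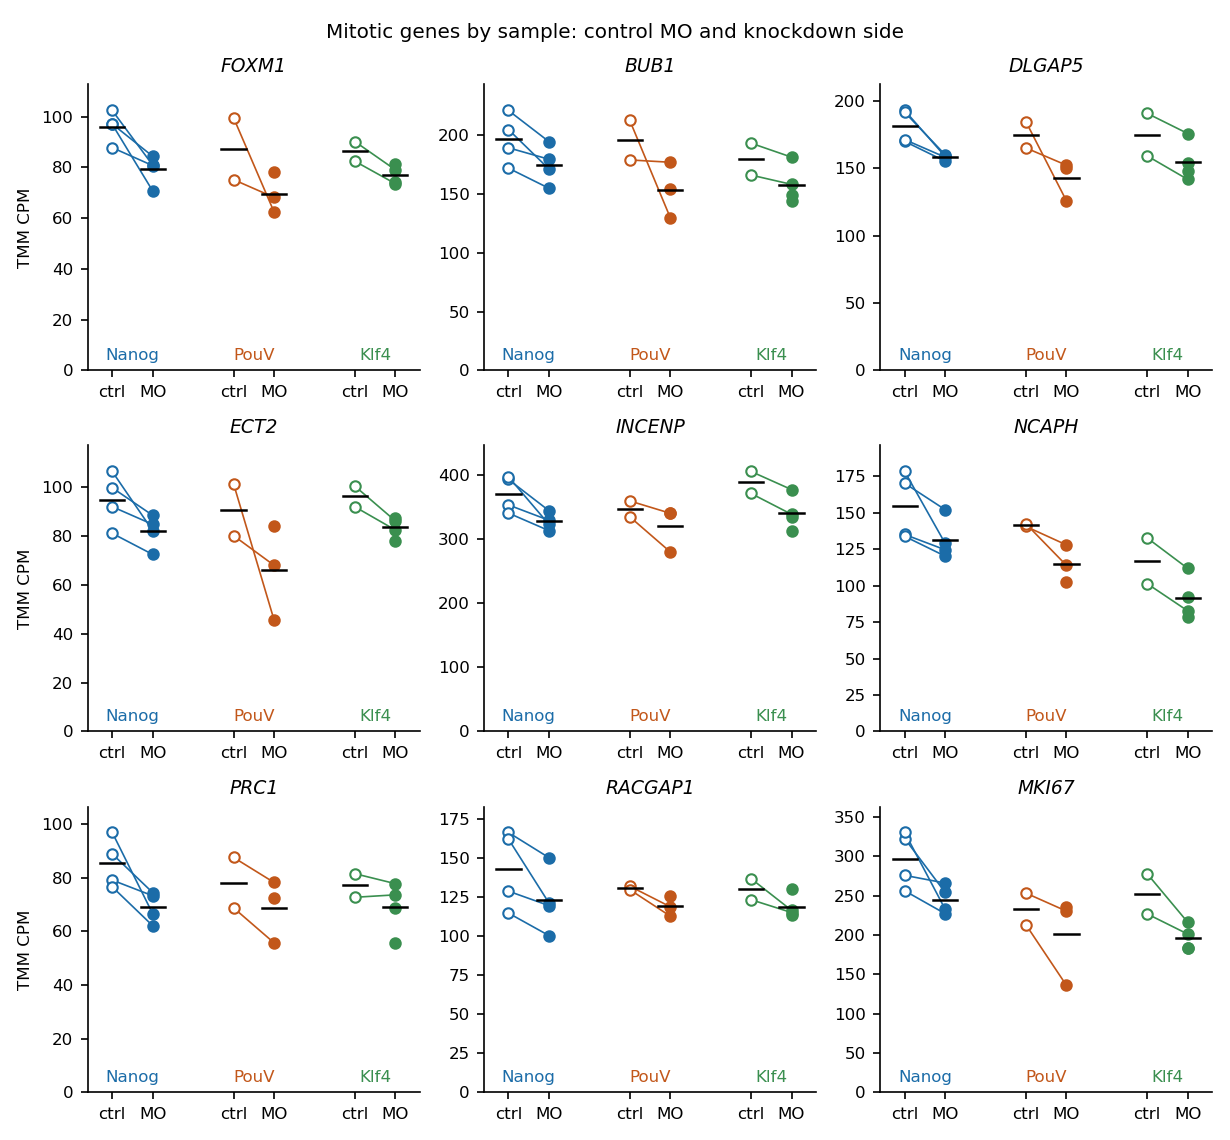
TMM CPM (y axis, from 0) of each of the 9 mitotic genes in the 19 samples, as open circles for control MO and filled circles for knockdown MO samples of the Nanog, PouV and Klf4 experiments, with lines joining same-numbered sides and black bars at group means. The bar of the MO samples lies below that of their own controls in every panel, while single samples often overlap.

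BUB1 (ENSGALG00000008233) is a kinase of the spindle checkpoint that sits at kinetochores. It ranged from 166 to 221 CPM in the 8 controls (median 191). In the Nanog experiment it was at 172, 189, 221 and 205 CPM in the controls and at 155, 179.6, 195 and 171 in the MO samples. These values overlapped, although each pair was lower on the MO side, by log2 ratios of -0.15, -0.08, -0.18 and -0.26. For PouV, the controls were at 179 and 213 CPM and the MO samples 1, 3 and 4 at 177, 130.0 and 154. They did not overlap, but control 1 and MO 1 nearly coincided, with a log2 ratio of -0.02 against -0.71 in the replicate 3 pair. For Klf4, the controls were at 193 and 166 CPM and the MO samples at 181, 144, 158 and 149, which overlapped (pairs -0.09 and -0.07). BUB1 had fitted log2 fold changes of -0.15 (standard error 0.0899), -0.30 (standard error 0.101) and -0.18 (standard error 0.104) after Nanog, PouV and Klf4 knockdown. Without PouV MO replicate 3 the PouV value was -0.16, so that this sample carried much of it. The Nanog value was -0.092 without Nanog MO replicate 1, and the Klf4 value -0.28 without Klf4 control replicate 3.

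DLGAP5 (ENSGALG00000012165), also known as HURP, stabilises the microtubules that run from the spindle poles to the kinetochores. Its controls ranged from 159 to 193 CPM (median 178). The Nanog controls were at 170.0, 171, 193 and 192 CPM and the Nanog MO samples at 155, 158, 159 and 160.1. The MO samples lay close together and below all of their controls. The PouV controls were at 165 and 185 CPM and the PouV MO samples 1, 3 and 4 at 152, 126 and 150.3. All 3 PouV MO samples lay below every one of the 8 controls, which held for no other of the 9 genes in any knockdown. The share of all genes for which it held is not given here, and nothing is read from it. The Klf4 controls were at 191 and 159 CPM and the MO samples at 176, 154, 142 and 148, with an overlap through MO replicate 1. DLGAP5 differed by log2 ratios of -0.13, -0.11, -0.28 and -0.26 in the Nanog pairs, -0.12 and -0.55 in the PouV pairs and -0.12 and -0.17 in the Klf4 pairs. The fitted log2 fold changes were -0.18 (standard error 0.0730) for Nanog, -0.31 (standard error 0.0817) for PouV and -0.14 (standard error 0.0843) for Klf4 knockdown. The PouV value was -0.20 without PouV MO replicate 3, and the Klf4 value was -0.22 without Klf4 control replicate 3.

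INCENP (ENSGALG00000007537) is the scaffold of the chromosomal passenger complex, which carries the kinase Aurora B to centromeres and later to the central spindle. It ranged from 334 to 405 CPM in the controls (median 365). In the Nanog experiment INCENP was at 353, 340.1, 392 and 397 CPM in the controls and at 329, 313, 344 and 323 in the MO samples. Only MO replicate 3 exceeded the lowest of these controls. In the PouV experiment the controls were at 359 and 334 CPM and MO samples 1, 3 and 4 at 339.9, 279.8 and 341. Here only MO replicate 3 lay below both controls. In the Klf4 experiment the controls were at 405 and 371 CPM and the MO samples at 377, 333, 338 and 313, with MO replicate 1 between its controls. INCENP was the gene with the smallest mean difference over the pairs, from -0.08 in the PouV replicate 1 pair to -0.30 in the Nanog replicate 4 pair. The fitted log2 fold changes were -0.17 (standard error 0.0742), -0.20 (standard error 0.0824) and -0.11 (standard error 0.0852) after Nanog, PouV and Klf4 knockdown, and the PouV value was -0.11 without PouV MO replicate 3. The Klf4 value ran from -0.18 without Klf4 MO replicate 1 to -0.07 without Klf4 control replicate 1.

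NCAPH (ENSGALG00000032270) encodes the kleisin subunit that closes the ring of condensin I, the complex that compacts mitotic chromosomes. Its controls ranged more widely, from 101 to 178 CPM (median 138). Levels of NCAPH in the Nanog controls were 135, 134, 170.3 and 178 CPM and in the MO samples 125, 120.3, 152 and 129. MO replicate 3 lay above controls 1 and 2, so the groups overlapped. Both PouV controls were close, at 141 and 142 CPM and MO samples 1, 3 and 4 at 128, 114 and 102, without overlap. In this gene the lowest PouV MO sample was replicate 4 and not replicate 3. Klf4 controls 1 and 3 were at 133 and 101 CPM and the MO samples at 112, 92.0, 82.7 and 78.4, with MO replicate 1 between its controls. The pairs gave log2 ratios of -0.12, -0.15, -0.16 and -0.47 for Nanog, -0.14 and -0.32 for PouV and -0.25 and -0.29 for Klf4. NCAPH had fitted log2 fold changes of -0.14 (standard error 0.0763), -0.25 (standard error 0.0850; -0.19 without PouV MO replicate 3) and -0.36 (standard error 0.0880) after Nanog, PouV and Klf4 knockdown. The Klf4 value depended on the processing, since it was -0.64 without the factor of unwanted variation and -0.57 without Klf4 control replicate 3. The factor was estimated from the controls and was itself highest in Klf4 control replicate 3, at 1.93, against -1.46 to 1.54 in the other 18 samples. It also went with the experiment, at 0.287 to 1.93 in the Klf4 samples against -1.46 to 0.034 in the Nanog samples. The Nanog value was between -0.17 and -0.10 with single samples left out.

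PRC1 (ENSGALG00000048349), the protein regulator of cytokinesis and not the Polycomb complex of the same abbreviation, bundles antiparallel microtubules of the central spindle. It ranged from 68.7 to 96.8 CPM in the controls (median 80.3). The Nanog controls were at 79.1, 76.6, 88.8 and 96.8 CPM and the MO samples at 73.3, 62.1, 74.4 and 66.6, without overlap. The PouV controls were at 87.5 and 68.7 CPM and MO samples 1, 3 and 4 at 78.2, 55.7 and 72.3. The Klf4 controls were at 81.5 and 72.7 CPM and the MO samples at 77.8, 68.8, 73.6 and 55.5. In both of these experiments MO samples lay between their controls. The log2 ratios of PRC1 were -0.11, -0.30, -0.25 and -0.54 in the Nanog pairs, -0.16 and -0.30 in the PouV pairs and -0.07 and 0.02 in the Klf4 pairs. PRC1 had fitted log2 fold changes of -0.25 (standard error 0.107), -0.22 (standard error 0.119) and -0.16 (standard error 0.123). After PouV knockdown the value was -0.07 without PouV MO replicate 3, and after Klf4 knockdown it ran from -0.24 without Klf4 control replicate 3 to -0.07 without Klf4 MO replicate 4. The gene ID that the authors' table names PRC1 is not the one that the study's list pairs with that name, ENSGALG00000012836, which has no name in the table. This second ID was lower in 8 of 8 pairs, with fitted log2 fold changes, in the order Nanog, PouV, Klf4, of -0.20, -0.12 (-0.10 without PouV MO replicate 3) and -0.12. The levels of both IDs had a Pearson r of 0.57 over the 19 samples, PouV MO replicate 3 included, and 0.15 over the 8 controls. Such r cannot show which ID is PRC1, and its identity was left uncertain.

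RACGAP1 (ENSGALG00000033231) forms the centralspindlin complex with the kinesin KIF23 and recruits ECT2 to the midzone. Its controls ranged from 115 to 166 CPM (median 131). The Nanog controls were at 115, 129, 166 and 162 CPM and the MO samples at 100.2, 119, 150.0 and 121. Both sides ranked the 4 replicates in the same order, and they overlapped. Both PouV controls were again close, at 132 and 129.6 CPM and MO samples 1, 3 and 4 at 119, 113 and 126, a small gap without overlap. Klf4 controls were at 123 and 137 CPM and the MO samples at 115, 114, 116 and 129.9, of which replicate 4 lay between its controls. The log2 ratios were -0.19, -0.11, -0.15 and -0.42 in the Nanog pairs, -0.15 and -0.20 in the PouV pairs and -0.10 and -0.23 in the Klf4 pairs. RACGAP1 had fitted log2 fold changes of -0.17 (standard error 0.103), -0.18 (standard error 0.114; -0.12 without PouV MO replicate 3) and -0.12 (standard error 0.119). The Nanog value ran from -0.26 without Nanog MO replicate 3 to -0.08 without Nanog MO replicate 1. The Klf4 value was -0.28 with the replicate block and the factor in the model, and -0.17 with the block and no factor.

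ECT2 (ENSGALG00000009157) is the exchange factor that activates RhoA for the contractile ring. It ranged from 80.2 to 106 CPM in the controls (median 95.9). The Nanog controls were at 81.1, 99.7, 106 and 92.0 CPM and the MO samples at 72.5, 88.5, 82.2 and 84.7, which overlapped. The PouV controls were at 80.2 and 101 CPM and MO samples 1, 3 and 4 at 68.0, 45.7 and 84.1. PouV MO replicate 3 was far below all other samples, while replicate 4 was between its controls. The Klf4 controls were at 92.0 and 100.4 CPM and the MO samples at 82.5, 78.1, 86.2 and 87.2, without overlap. ECT2 had the lowest log2 ratio of the 72, at -1.14 in the PouV replicate 3 pair, against -0.24 in the PouV replicate 1 pair. The Nanog pairs gave -0.16, -0.17, -0.37 and -0.12 and the Klf4 pairs -0.16 and -0.22. The fitted log2 fold changes were -0.19 (standard error 0.117), -0.54 (standard error 0.133) and -0.25 (standard error 0.137) after Nanog, PouV and Klf4 knockdown. Without PouV MO replicate 3 the PouV value was -0.32 (standard error 0.115).

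MKI67 (ENSGALG00000025996) encodes Ki-67, the coat protein of mitotic chromosomes that is used as a mark of dividing cells. It ranged from 213 to 330.2 CPM in the controls (median 266). The Nanog controls were at 256, 322, 330.2 and 276 CPM and the MO samples at 227, 254, 233 and 266, with an overlap through MO replicate 4. MKI67 in the PouV controls was at 253 and 213 CPM and MO samples 1, 3 and 4 at 230.3, 136 and 236. Only MO replicate 3 was outside the range of its controls. The Klf4 controls were at 278 and 227 CPM and the MO samples at 216, 184, 201 and 183, all below both controls. The log2 ratios of MKI67 were -0.17, -0.34, -0.50 and -0.05 in the Nanog pairs, -0.14 and -0.64 in the PouV pairs and -0.36 and -0.17 in the Klf4 pairs. The fitted log2 fold changes were -0.14 (standard error 0.134), -0.42 (standard error 0.152) and -0.45 (standard error 0.158). The PouV value was -0.20 without PouV MO replicate 3, and the Nanog value was -0.09 without Nanog control replicate 3. With the replicate block and the factor, the Nanog value was -0.37 and the Klf4 value -0.16. With the block and no factor, both were -0.27.

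Over the 9 genes, the fitted level was below the controls by 9.09 to 15.9% with Nanog, 11.9 to 30.99% with PouV and 7.48 to 26.8% with Klf4 knockdown. Their median was a log2 fold change of -0.17 for Nanog, -0.30 for PouV and -0.18 for Klf4 knockdown, where the medians of all 18996 genes tested were within 0.01 of 0. Without PouV MO replicate 3 the median after PouV knockdown was -0.19, with values from -0.32 to -0.07. In the same model, edgeR's quasi-likelihood test with Benjamini-Hochberg adjustment called 0.0% of the 18996 genes lower and 0.258% higher after Nanog knockdown, 0.184% lower and 0.479% higher after PouV knockdown, and 0.00526% lower and 0.0105% higher after Klf4 knockdown. This model leaves out the pairing of the sides. With the replicate block and the factor, the 126 genes called after PouV knockdown became 35. After Nanog knockdown that model called 7 genes lower and 49 higher. With the block and no factor, 107 genes were called lower and 164 higher after Nanog knockdown. The 8 controls of one gene varied with a coefficient of variation of 7.25 to 16.8% (median 10.2%, against 16.4% over the 13781 genes at 1 CPM or more), a range that overlaps that of the fitted differences. A gene with a wide spread among the controls was less likely to be chosen, so nothing is read from the lower median. This spread is of single samples, while the uncertainty of a fitted difference is its standard error.

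**Figure D3:**
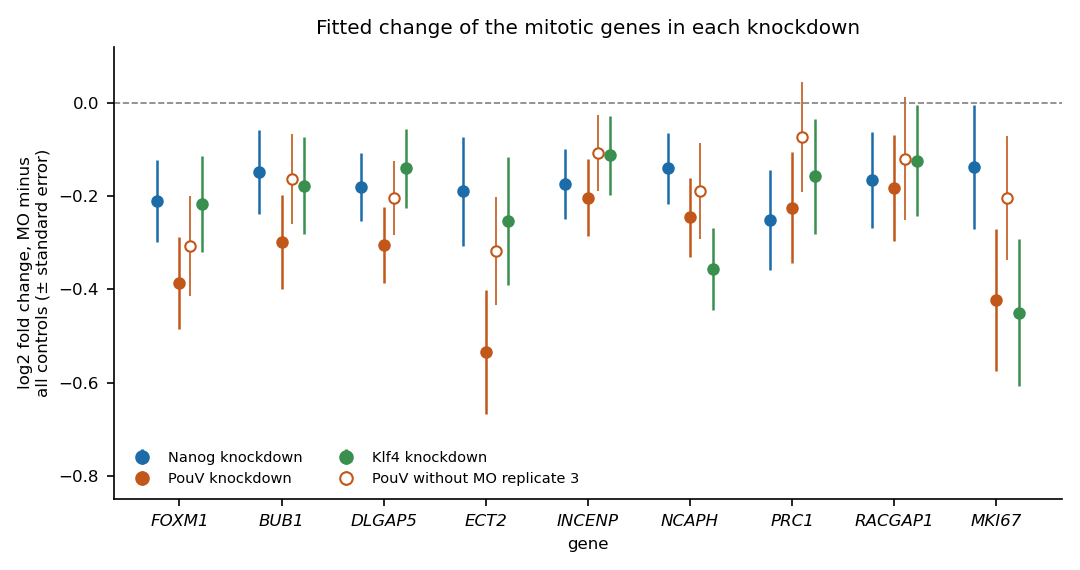
Fitted log2 fold change of each of the 9 mitotic genes (x axis) in each knockdown against all 8 controls, with bars of 1 standard error, and open circles for PouV knockdown without PouV MO replicate 3. All points lie below 0, from -0.54 for ECT2 after PouV knockdown to -0.07 for PRC1 after PouV knockdown without that sample.

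Within an experiment, every MO sample lay below every control for 3 of the 9 genes in the Nanog experiment (FOXM1, DLGAP5 and PRC1), beside 2.11% of all genes tested. This was so for 4 of 9 in the PouV experiment (BUB1, DLGAP5, NCAPH and RACGAP1), beside 6.81% of all genes, and for 3 of 9 in the Klf4 experiment (FOXM1, ECT2 and MKI67), beside 5.33%. These are the contrasts by which the genes were chosen, and nothing is read from the shares. PouV MO replicate 3 held the lowest of the 19 values for 6 of the 9 genes, Klf4 MO replicate 4 for NCAPH and PRC1, and Nanog MO replicate 1 for RACGAP1. The mean of the 9 standardised levels ran from 0.0995 to 1.55 in the controls and from -1.97 (PouV MO replicate 3) to 0.205 (Nanog MO replicate 3) in the MO samples, so that Klf4 control replicate 3 and Nanog control replicate 1 (0.178) lay below the highest MO sample.

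Whether the 3 sets of controls differed from one another was also examined. The study set each knockdown against all of its controls, so the control values entered the choice of the genes. A gene with a wide spread among the controls was less likely to be chosen. The result for the 9 genes is therefore a description and no independent test. None of the 9 genes passed edgeR's quasi-likelihood F test over the 3 sets, with 0 of 9 also at an unadjusted p under 0.05 and 0 of 9 by the likelihood ratio test of DESeq2. The test called 0.00548% of 18235 genes, with 2181 genes at an unadjusted p under 0.05 and 552 genes called by DESeq2. The lowest adjusted p-values were 0.472 for MKI67, whose means were 296, 233 and 252 CPM in the Nanog, PouV and Klf4 controls, and 0.479 for NCAPH, at 154, 142 and 117 CPM. In simulated counts this test recovered 38% of the genes changed by a log2 fold change of 1. Among such genes, smaller differences between the controls were mostly out of reach. They were drawn from all genes above 1 CPM, so this share does not describe the 9 genes in particular.

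The knockdown effects themselves were compared in a model where each MO group was set against its own controls. edgeR's quasi-likelihood test of the difference called no gene. This was 0.0% of the 18996 genes for Nanog against PouV, 0.0% for Nanog against Klf4 and 0.0% for PouV against Klf4. At an unadjusted p under 0.05 there were 476, 557 and 506 genes, and DESeq2 called 3, 11 and 0. The 9 mitotic genes were chosen as lower in every knockdown of these samples, so for them the differences are a description and no test of their likeness. In the full data ECT2 had the largest of these differences, with a log2 fold change against its own controls of -0.21 for Nanog, -0.46 for PouV and -0.20 for Klf4 knockdown. The fall of ECT2 was thus larger after PouV than after Nanog or Klf4 knockdown. On the log2 scale, the differences were 0.25 for Nanog minus PouV (standard error 0.234) and -0.26 for PouV minus Klf4 (standard error 0.256). These rested on PouV MO replicate 3, since without it they were 0.05 (standard error 0.181) and -0.06 (standard error 0.196), and MKI67 then had the largest, at -0.27 (standard error 0.169) and 0.35 (standard error 0.183). MKI67 was at -0.27, -0.22 and -0.36 and NCAPH at -0.23, -0.30 and -0.36 in the same order. Over the 9 genes the standard error of such a difference was 0.136 to 0.256. In simulated counts the comparison of Nanog with PouV recovered 22.5% of genes whose effects differed by a log2 fold change of 1. Those genes were drawn from all genes above 1 CPM, so this share does not describe the 9 genes in particular. Like sizes of effect are not shown here.

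Beyond these genes, 80 further genes of the cell cycle were listed by role, of which 70 were measured and tested, including CDKN1A of the study's own list. The others included 51 genes of mitosis. After Nanog knockdown 48 of the 51 had a negative log2 fold change (median -0.12), after PouV knockdown 44 (median -0.18, and -0.07 without PouV MO replicate 3) and after Klf4 knockdown 32 (median -0.04). Of all 18996 genes tested, 49.1, 50.02 and 50.2% were negative in the same order. At an adjusted p under 0.05 the quasi-likelihood test called 0, 1 and 0 of them, all lower, and 7, 17 and 1 had an unadjusted p under 0.05, which 5.82, 15.7 and 6.09% of all genes also had. DESeq2 called 1, 4 and 0 of the 51, and 0.605, 2.67 and 0.411% of all genes. In the pairs, 7 of the 51 genes, or 13.7%, were lower in 8 of 8, beside 3.26% of the 13781 genes at 1 CPM or more. The lists were chosen with earlier results of these data known, so this contrast is a description. The 3 knockdowns share the 8 controls, so their values are not independent of one another.

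TPX2 was the mitotic gene that passed the test. Its protein activates Aurora A and nucleates microtubules around the chromosomes. It was at 365, 339.8 and 416 CPM in PouV MO samples 1, 3 and 4, below the lowest of the 8 controls at 465.97 (median 525, highest 610). The controls had a mean of 536 ± 48.3 CPM (SD, n = 8) and the PouV MO samples one of 373 ± 38.7 (SD, n = 3). TPX2 thus fell by 0.51 on the log2 scale (standard error 0.0917, adjusted p = 0.00949 by edgeR's quasi-likelihood test). The call was lost against the PouV controls only (log2 fold change -0.46, adjusted p = 0.501) and without PouV MO replicate 3 (log2 fold change -0.43, adjusted p = 0.146), and it held in the other 26 of 28 alternatives. Of the 28, 19 leave out 1 sample each, most of them outside the PouV experiment. Those fits change the PouV contrast little, so the count of 26 is no measure of support. After Nanog and Klf4 knockdown TPX2 was at -0.18 (adjusted p = 0.796) and 0.03 (adjusted p = 0.978), and whether these differ from the PouV value is covered by the test above, which called no gene.

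The listed partners of each of the 9 genes were then read by role. Where 3 log2 fold changes follow each other below, they stand for Nanog, PouV and Klf4 knockdown, and the PouV value without PouV MO replicate 3 is added. Without that sample the list medians after PouV knockdown became -0.06 for the FOXM1 circuit, -0.09 for the checkpoint and kinetochore, -0.07 for spindle assembly, -0.19 for condensin and chromosome structure, -0.13 for the central spindle and cytokinesis, -0.03 for the partners of Ki-67, -0.08 for DNA replication and -0.16 for cell cycle exit. In the circuit around FOXM1, which includes the MuvB and E2F regulators and the mitotic kinases, 12, 12 and 8 of 13 genes had a negative log2 fold change after Nanog, PouV and Klf4 knockdown, with medians of -0.12, -0.16 and -0.04 and none called. PLK1, the kinase that phosphorylates and activates FOXM1, had a mean of 489 ± 37.6 CPM (SD, n = 8) in the controls and of 413 ± 17.2 (SD, n = 4) in the Nanog MO samples (log2 fold change -0.25, adjusted p = 0.357). CCNA2, the cyclin whose kinase also phosphorylates FOXM1, was lower in 8 of 8 pairs (fitted log2 fold changes -0.14, -0.18 and -0.11, adjusted p = 0.920, 0.319 and 0.944; PouV -0.03 without that sample). RBBP4, a subunit of MuvB and of chromatin complexes, was at -0.02, -0.12 (-0.11) and -0.13.

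Among the 12 genes of the spindle checkpoint and kinetochore, 11, 10 (7 without PouV MO replicate 3) and 7 were negative, with medians of -0.08, -0.16 and -0.01, and none was called by edgeR. BUB1B, the BubR1 protein of the checkpoint complex and relative of BUB1, was at 127 to 169 CPM in the Nanog MO samples against 159 to 227 in the controls, a difference of -0.44 on the log2 scale (standard error 0.105, adjusted p = 0.109). DESeq2 called it (adjusted p = 0.0181), as did edgeR without Nanog MO replicate 4 (log2 fold change -0.54, adjusted p = 0.0381), and it was lower in 8 of 8 pairs. KNL1, the kinetochore scaffold that BUB1 binds, was at -0.08, -0.30 (-0.27 without PouV MO replicate 3) and -0.21. SGO1, which protects the cohesion of centromeres, was at -0.15, -0.16 (-0.20) and -0.22. All 7 genes of spindle assembly were negative for Nanog and for PouV and 4 for Klf4 knockdown, with medians of -0.15, -0.19 and 0.00. CKAP5, a microtubule polymerase, was at -0.19, -0.29 and -0.14, but only PouV MO replicate 3 of the PouV MO samples was below the mean of the controls, and without it the PouV value was -0.01.

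Of the chromosomal passenger complex beside INCENP only BIRC5 (survivin) was tested, and its log2 fold changes were -0.06, 0.13 and 0.03. The PouV value turned to -0.04 without PouV MO replicate 3. The 8 genes of condensin and chromosome structure were negative in 8, 7 and 5 cases, with medians of -0.07, -0.18 and -0.04. NCAPD3, a subunit of condensin II, had a mean of 104 ± 11.2 CPM (SD, n = 8) in the controls and of 71.7 ± 24.1 (SD, n = 3) in the PouV MO samples (log2 fold change -0.56, adjusted p = 0.0821, and -0.32, adjusted p = 0.566, without PouV MO replicate 3), but stood at 0.15 after Klf4 knockdown (adjusted p = 0.955). NCAPG2, another subunit of condensin II, was at -0.45 after PouV knockdown (adjusted p = 0.0813, and -0.31, adjusted p = 0.574, without that sample). NCAPG, which shares condensin I with NCAPH, was at -0.03, -0.18 (-0.18) and -0.14. Of this list edgeR called no gene after PouV knockdown, whereas DESeq2 called NCAPD3, NCAPG2 and, named after its value was seen, TOP2A, the topoisomerase that untangles sister chromatids. NCAPD3 was also called by edgeR with the replicate block and no factor (adjusted p = 0.0346). NCAPD3 and TOP2A were called by edgeR without PouV MO replicate 4 (adjusted p = 0.0110 and 0.0334). TOP2A was at -0.34 after PouV knockdown and at -0.20 without PouV MO replicate 3.

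In the list of the central spindle and cytokinesis, 7, 6 and 6 of 7 genes were negative, with medians of -0.16, -0.30 and -0.10. KIF23, the kinesin partner of RACGAP1, was at 163 to 212 CPM after PouV MO against 215 to 253 in the controls. It was lower in 8 of 8 pairs (log2 fold changes -0.16, -0.27 and -0.10, adjusted p = 0.859, 0.146 and 0.949, and PouV -0.15 without PouV MO replicate 3). ANLN (anillin), which scaffolds the contractile ring, was at -0.05, -0.30 (-0.10 without PouV MO replicate 3) and -0.32. Of the partners of Ki-67, CDCA2 was lower in 7 of 8 pairs (-0.25, -0.21 and -0.20; PouV -0.03 without PouV MO replicate 3), while NIFK, a nucleolar protein that binds Ki-67, was lower in 1 of 8 pairs and stood at 0.05, 0.23 (0.17) and 0.07 (adjusted p = 0.997, 0.170 and 0.957).

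Genes of other cell cycle steps were listed for comparison. The 11 genes of DNA replication had medians of -0.07, -0.11 and -0.04, with 10, 9 and 7 negative and none called. Among them were MCM6 of the replicative helicase at -0.07, -0.19 (-0.11 without PouV MO replicate 3) and -0.08 and PCNA, the sliding clamp, at -0.13, -0.03 (-0.08) and 0.05. GINS2 of the same helicase was at -0.10, -0.05 (turned to 0.11) and -0.23. The 7 genes of cell cycle exit had medians of 0.05, -0.01 and 0.06. CCNG1, the cyclin G1 gene that p53 switches on, was called higher after Nanog knockdown. It was at 293, 290.5, 326 and 229 CPM in the Nanog MO samples, above all 8 controls (138 to 211), and rose by 0.71 on the log2 scale (standard error 0.122, adjusted p = 0.00945 by edgeR's quasi-likelihood test). The call held in 25 of 28 alternatives, many of which leave out a sample of another experiment. It was lost without Nanog MO replicate 1, 2 or 3 (adjusted p = 0.0504, 0.0581 and 0.0576). Among the Nanog MO samples, only replicate 4 could be left out with the call kept (adjusted p = 0.00492). After PouV knockdown CCNG1 was at 0.44 (adjusted p = 0.135, and 0.31 without PouV MO replicate 3). After Klf4 knockdown it was at 0.26 (adjusted p = 0.881), and it was lower on the MO side in 0 of 8 pairs. CDKN1A, which encodes the cell cycle inhibitor p21, belongs to the study's list and so was not counted with these genes. As it was chosen on these same samples, its values are a description without a test. It was at 53.8, 40.4, 53.7 and 23.8 CPM in the Nanog MO samples against 4.45 to 18.1 in the controls. Its log2 fold changes were 2.25, 1.42 (0.87 without PouV MO replicate 3) and 0.99 after Nanog, PouV and Klf4 knockdown. It was lower on the MO side in 0 of 8 pairs.

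**Figure D4:**
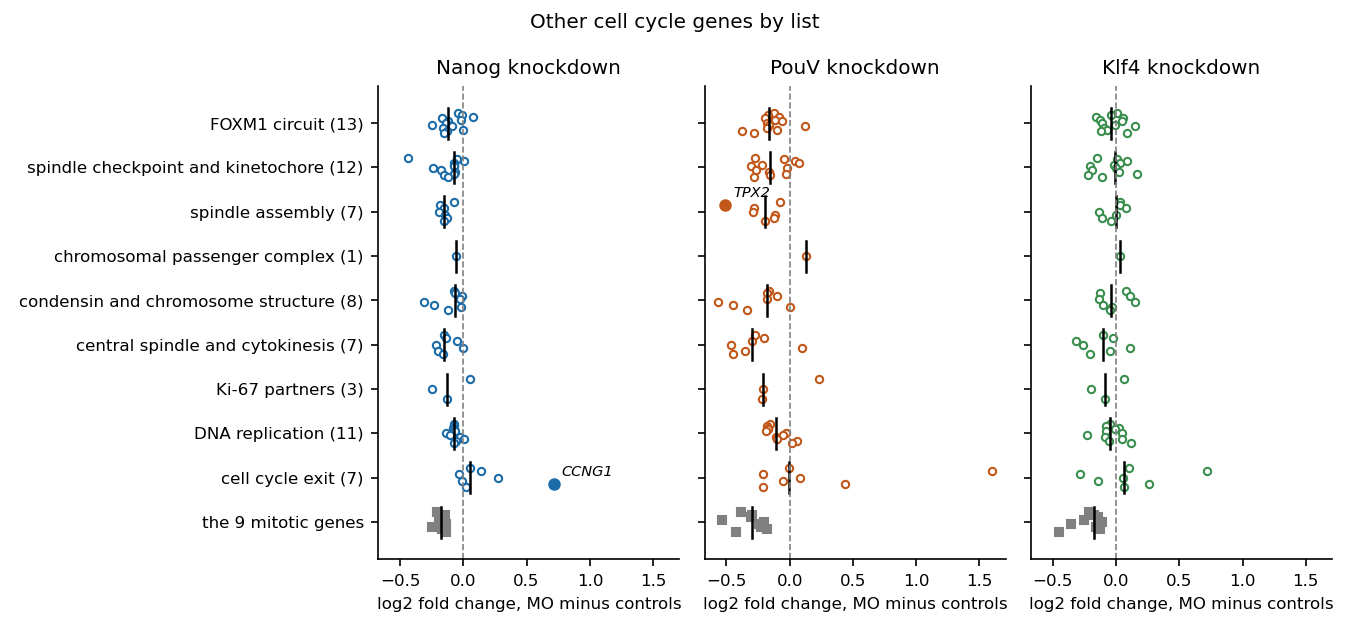
Log2 fold change (x axis) of each listed cell cycle gene in the Nanog, PouV and Klf4 knockdowns against all 8 controls, by role (rows, number tested in brackets), with black bars at the median, filled circles for genes with an adjusted p under 0.05 and grey squares for the 9 mitotic genes. TPX2 at -0.51 after PouV and CCNG1 at 0.71 after Nanog knockdown are the filled points, and the squares sit at medians of -0.17, -0.30 and -0.18.

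The levels of the 9 genes were compared with one another across samples as a description. Samples share embryos, library preparation and, within a group, treatment, so they are not independent. Over all 19 samples the 36 gene pairs had Pearson r from 0.19 to 0.88 (median 0.66). These r include the knockdown contrast on which the genes were chosen. They also include PouV MO replicate 3, whose mean standardised level of -1.97 was the lowest, and were not computed without it. Over the 8 controls alone, in which the knockdown plays no part, r ran from -0.29 to 0.88 (median 0.46), and 3 of the 36 gene pairs were negative. BUB1 and DLGAP5 were closest, at 0.88, and ECT2 and PRC1 farthest apart, at -0.29. In the controls INCENP and PRC1 had negative r with FOXM1, at -0.08 and -0.09.

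**Figure D5:**
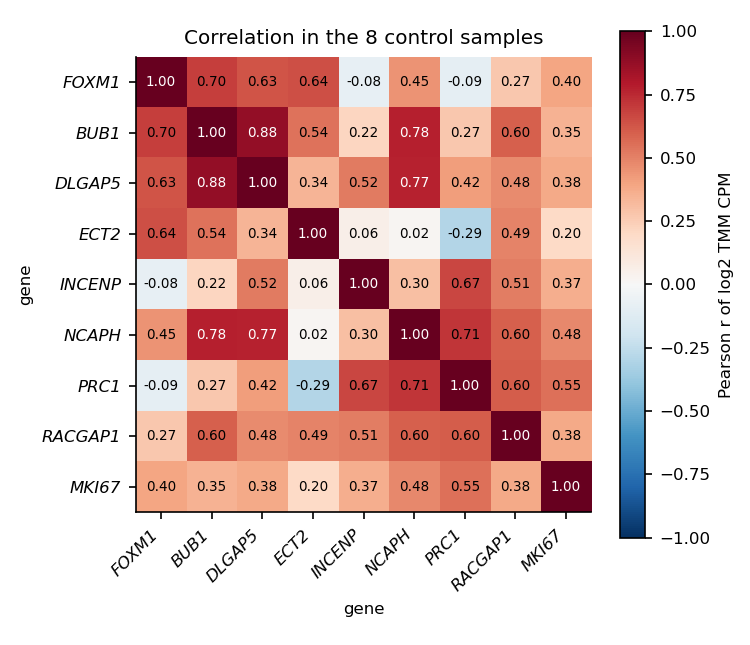
Pearson r of the log2 TMM CPM between each 2 of the 9 mitotic genes over the 8 control samples, from blue (negative) to red (positive), with r in each cell. BUB1, DLGAP5 and NCAPH form the darkest block off the diagonal, and ECT2 with PRC1 is the lowest cell at -0.29.

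Among 10196 other genes with a mean of at least 5 CPM, the 5 whose levels were most like the mean of the 9 over the 19 samples were all genes of mitosis. They were ARHGAP19 (r = 0.91, and 0.85 over the 8 controls), CENPE (0.91 and 0.86), KIF15 (0.90 and 0.81), KIF20A (0.89 and 0.90) and KIF23 (0.88 and 0.78). The r over 19 samples include PouV MO replicate 3 and the knockdown contrast, and were not computed without them except over the controls. ARHGAP19 is a RhoA inactivator of mitosis, CENPE a kinetochore motor, KIF15 a spindle motor, and KIF20A and KIF23 motors of the central spindle. ARHGAP19 and CENPE belong to the study's list, so they are described without a test. ARHGAP19, CENPE and KIF23 were lower in 8 of 8 pairs, KIF15 in 7 and KIF20A in 5. In the order Nanog, PouV, Klf4 the log2 fold changes of ARHGAP19 were -0.19, -0.32 (-0.15 without PouV MO replicate 3) and -0.37. Those of KIF20A were -0.14, -0.21 (-0.05) and -0.03 (adjusted p = 0.936, 0.283 and 0.987). None of KIF15, KIF20A and KIF23 passed the test in any knockdown. The promoter sequences of these genes were not used here.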

How the data were processed

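Bulk RNA sequencing of 19 samples, prepared as ultra-low input libraries, was used. The authors aligned the paired-end reads with STAR (version 2.7.2a and build GRCg6a by the submitters' processing notes) and deposited raw counts per gene, a filtered count table, and TMM values that are the counts times 1 constant per sample, taken here as a signal unit. Whether strand was used in counting is not given in the sources used here. The 18996 of 24356 genes that exceeded 5 reads in 1 or more samples were tested, the filter that the study used. Each knockdown was set against all 8 controls in 1 model with 1 factor of unwanted variation (RUVs, rewritten; 1000 least variable genes, controls as replicates) in edgeR 4.0.16 (R 4.3.3), with TMM and the quasi-likelihood test. p-values were adjusted by Benjamini-Hochberg, with 0.05 as threshold, and a standard error is the fold change divided by the root of its F statistic. Control sets and differences between knockdowns were fitted without the factor. Pair ratios used a prior of 0.5 CPM.

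The members and the gene lists were chosen with earlier results of these data known. The other genes named were, by rule, those of each list that were called or had the smallest p-value in a knockdown, and the 5 genes whose log2 CPM had the highest r with the mean standardised level of the 9. Alternatives were DESeq2 1.42.0, RLE size factors, other gene filters, 0 or 2 factors, own controls, the replicate block, a prior of 1 CPM, the deposited signal values and each sample left out. Pairing follows from the bilateral electroporation. Deviations of same-numbered samples from their group means had r from -0.001 to 0.677 (median 0.577, 7 of 8 pairs over 0.1, and the Nanog replicate 4 pair at -0.001). On simulated counts the PouV contrast recovered 67.5% of 200 genes changed by a log2 fold change of 1, with 4 false calls among 18538 genes. The simulated samples were independent, without pairing and without a sample that stood apart. The simulation therefore does not give the rate of false calls in the real samples. Intervals from total counts, 31215191 to 44726348, cover counting error only. No sequences were used here.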

Additional observations from a re-analysis of the deposited data

Results flagged for a closer look

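RACGAP1 in Klf4 MO replicate 4 was at 129.9 CPM, while the other 3 Klf4 MO samples lay between 113.7 and 116.4, a gap of 0.836 of the group's whole range that is wider than Dixon's test allows for 4 samples. It was the 1 such sample among 36 groups tested, and chance gives about 1 in 20. In the same sample NCAPH and PRC1 were at their lowest of all 19 samples.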

How the results depend on the processing

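The 9 genes were chosen as lower in these same samples, which largely fixes their sign when the samples are refitted. Their direction under other settings, in fits or in pair ratios, is therefore a description and no test. Under all 756 alternative values (27 fold changes of the 9 genes under 28 alternatives) the genes stayed lower than the controls. Of these, 747 moved by less than 1 SD of the pair ratios, and the 9 that moved more concerned MKI67 (-0.37 after Nanog and -0.16 after Klf4 knockdown with the replicate block and factor, -0.22 with own controls and -0.20 without PouV MO replicate 3 after PouV knockdown), INCENP after PouV knockdown (-0.11 in both of the latter), NCAPH after Klf4 knockdown (-0.64 without the factor, -0.57 without Klf4 control replicate 3) and RACGAP1 after Klf4 knockdown (-0.28 with the replicate block and factor). The SD was taken over all 8 pairs, so the PouV replicate 3 pair widened it (SD 0.34 for ECT2 and 0.22 for BUB1). Without PouV MO replicate 3, ECT2 after PouV knockdown went from -0.54 to -0.32 and BUB1 from -0.30 to -0.16. Both shifts counted as less than 1 SD. The 71 of 72 lower pair ratios became 70 with CPM by total counts and stayed 71 with RLE size factors, a prior of 1 CPM, the deposited values and, chosen after seeing the data, relative to the median of all genes. Without the PouV replicate 3 or the Nanog replicate 4 pair, both chosen after seeing the data, they were 62 of 63. With the listed PRC1 ID, also chosen after seeing the data, they became 72.

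Counts over all genes moved more. The 49 genes called after Nanog knockdown became 115 by DESeq2 and 26 without the factor, the 126 after PouV knockdown 507 by DESeq2, 63 without the factor and 0 with own controls, and the 3 after Klf4 knockdown 78, 440 and 0. Listed pathway genes called went from 1 to 2 after Nanog knockdown and from 1 to 4 after PouV knockdown by DESeq2, and to 0 after PouV knockdown with own controls. With the replicate block, for samples from the same embryos, 56, 35 and 2 genes were called after Nanog, PouV and Klf4 knockdown with the factor and 271, 73 and 0 without it, and 2 pathway genes after PouV knockdown without it. The added pathway gene was NCAPD3, and the block changed no other call of a pathway gene. With 1 sample left out, genes called ran from 25 to 60 after Nanog, from 16 (without PouV MO replicate 3) to 498 (without PouV MO replicate 4) after PouV and from 0 to 769 (without Klf4 control replicate 3) after Klf4 knockdown, and pathway genes from 0 to 2, 0 to 3 and 0 to 2. No setting gave a call among the 9 genes in the test of control sets.

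Groups held 2 to 4 samples, single MO samples moved the values, and the fitted differences of the 9 genes were 7.48 to 30.99% of a level. Counting error was at most 2.52% of a value. The smallest pair differences were within it. BUB1 in the PouV replicate 1 pair was 1.09% below its control, with counting errors of 1.29 and 1.23%. PRC1 in the Klf4 replicate 3 pair, the exception above 0, also differed by less than its counting errors. Whether depth limited the values was not tested. The sources give no cell composition of the pools, and protein levels of the targets were not analysed here. The motif search planned for promoters was not run. The causes of the shifts between settings were not tested.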
